A study of Arabidopsis thaliana with 11 samples.

Results

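WRKY proteins are plant transcription factors that bind W-box elements through a conserved domain that carries the residues of their name next to a zinc finger. Group I members have a pair of these domains, group II members have a single domain with a C2H2 zinc finger, and group III members have a single domain with a C2HC zinc finger. Many are immediate outputs of MAP kinase cascades in immunity, others act in salicylate and jasmonate crosstalk, leaf senescence, phosphate nutrition and abscisic acid signalling, and a few are known to act on stomatal movement.

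The 56 Arabidopsis thaliana WRKY genes were taken by locus out of 28718 loci in the authors' deposited table. Measured values were not the rule for membership, but earlier results of these data were known when the members were chosen. They comprise 10 genes of group I, 3 of group IIa, 8 of group IIb, 11 of group IIc, 7 of group IId, 6 of group IIe and 11 of group III. The RNA came from guard-cell-enriched material of Col-0 plants, which were 4 to 5 weeks old at the start and 6 to 7 weeks old at harvest. Plants of the 3x salt group (4 samples) had pots soaked with NaCl in 3 rounds of rising strength: 75 mM (days 1 to 2), then 150 mM (days 7 to 8), then 200 mM (days 13 to 14), with soaks of 2 h. For 1x salt (3 samples) the last of these rounds was the only one, and the no salt group (4 samples) received tap water throughout. All samples were taken on day 15, after 4 h of light. The salt regimes thus ended alike and differed in what came before.

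The 11 one-colour Agilent arrays carried 43803 non-control spots each, of which 66.24 to 80.25% were well above background by the scanner software's own flag. Array brightness, as the 75th percentile of processed signals, ranged from 1341.6 to 2853.7 intensity units. Levels are given here as log2 of the processed signal minus that percentile, so that 0 is the brightness of the 75th percentile spot of an array. A level belongs to a probe, and levels of different genes are not set against each other. Nothing in the labels says that replicates were separate plants or guard cell preparations, so the p-values cover the spread between arrays, which could be technical. Arrays of a group also lay unequally close together. The SD of the log2 differences between arrays over all genes tested was 0.33 for 3x salt samples 1 and 2 and 0.33 for 3x salt samples 3 and 4, but 0.51 to 0.56 between these pairs. It was 0.46 for 1x salt samples 2 and 3 but 0.61 and 0.69 for 1x salt sample 1 against them, and 0.30 to 0.33 among no salt samples 2 to 4 but 0.42 to 0.45 for no salt sample 1 against them. The family-wide counts are therefore also given with these close arrays averaged to 1 sample, which leaves 2 samples in each group.

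Guard cell identity genes were well above background on all 11 arrays for 11 of 11 markers, and so were all 8 mesophyll and all 11 vascular markers. Because these are bulk samples, fewer cells of a type and less RNA per cell cannot be told apart.

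Most WRKY genes were measurable in these samples. A probe was matched to 54 of the 56 genes, and 37 of these were well above background on all 11 arrays, including 9 of the 9 group I genes with a probe, all 3 of group IIa and all 7 of group IId. No probe was matched to WRKY4 and WRKY61, whose values come from the authors' deposited table alone. Well above background on all 11 arrays were only 2 of the 7 group IIb genes with a probe, 5 of 11 in group III and 6 of 11 in group IIc. The 3 dimmest members lay in groups IIb and IIc. WRKY31 was well above background on 0 arrays, WRKY72 on 1 array (1x salt sample 3) and WRKY43 on 1 array (3x salt sample 4), and these 3 genes were not tested. The other 51 passed the filter of 3 arrays. Of these, 5 passed only through 1 group, since they had fewer than 3 arrays above background in the others: WRKY9, WRKY51 and WRKY62 through no salt, and WRKY71 and WRKY67 through 3x salt. A gene tested because of the group where it is high cannot be set against the others on equal terms, so the counts are also given without these 5. Of the 14 that passed but were dim on some arrays, WRKY51 was well above background on 1 of 4 3x salt arrays, 0 of 3 1x salt arrays and 4 of 4 no salt arrays, and WRKY62 on 1 of 4, 1 of 3 and 4 of 4. WRKY9, WRKY35, WRKY71 and WRKY67 were dim on at least 1 array of every group, and differences of these genes are differences between values near the noise floor.

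**Figure D1:**
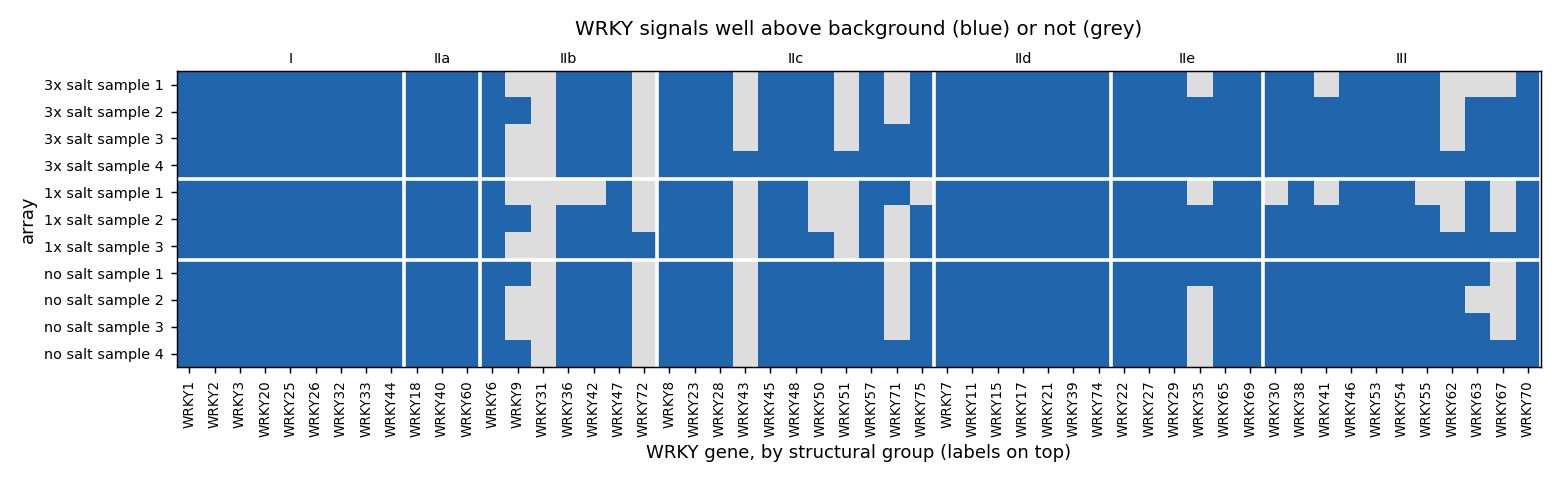
Detection of the 54 WRKY genes with a matched probe, with arrays along one axis grouped as 3x salt, 1x salt and no salt and genes along the other ordered by WRKY group. Blue cells are well above background and grey cells are not, and 37 genes are blue on all 11 arrays while WRKY31 is grey on all of them.

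After 3 rounds of salt, 16 of the 51 WRKY genes tested were lower and 4 were higher than without salt (limma adjusted p below 0.05 over all 23458 genes tested), that is 31.4% and 7.84% of them. Over all genes the shares were 23.6% lower and 27.9% higher. Without the 5 genes that passed only through 1 group, 13 of 46 were lower and 4 higher in 3x salt, and 8 lower and 3 higher in 1x salt. After a single round, 9 WRKY genes were lower (17.6%, against 7.68% of all genes) and 3 were higher (5.88%, against 9.21% of all genes). The median log2 difference of the tested WRKY genes was -0.08 in 3x salt and -0.19 in 1x salt, against medians of 0.04 and 0.04 over all genes. In 3x salt this gap depended on the processing. The WRKY and all-gene medians there were -0.18 and -0.15 with normexp, 0.004 and 0.018 with the authors' deposited table, and -0.07 and 0.07 with quantile normalization. In 1x salt they were -0.35 and -0.09, -0.20 and 0.006, and -0.29 and -0.02. Both comparisons use the same no salt samples, so their likeness is in part built in, and the direct comparison of the salt regimes is given further on. With close arrays averaged, limma called 6 WRKY genes lower (WRKY38, WRKY40, WRKY46, WRKY51, WRKY53 and WRKY62) and 1 higher (WRKY23) in 3x salt, while the other 3x salt calls were lost, and 0 in either direction in 1x salt, where 10 were lower and 3 higher at an unadjusted p below 0.05. Averaging lowered the calls over all genes too, to 4.7% lower and 4.75% higher in 3x salt and 0% lower and 0.00853% higher in 1x salt. Without 1x salt sample 1 the 3x salt counts were 15 lower and 7 higher (25% and 29.4% of all genes). The background correction also moved the 1x salt split, to 7 lower and 1 higher with normexp (3.01% and 2.27% of all genes). Normexp ended the 3x salt calls of WRKY9, WRKY20, WRKY23, WRKY32, WRKY41 and WRKY50 and the 1x salt calls of WRKY17, WRKY39, WRKY50 and WRKY51. The authors' deposited table ended the 3x salt calls of WRKY9, WRKY32, WRKY41 and WRKY50 and the 1x salt calls of WRKY39 and WRKY50. Every adjusted p in what follows comes from limma.

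**Figure D2:**
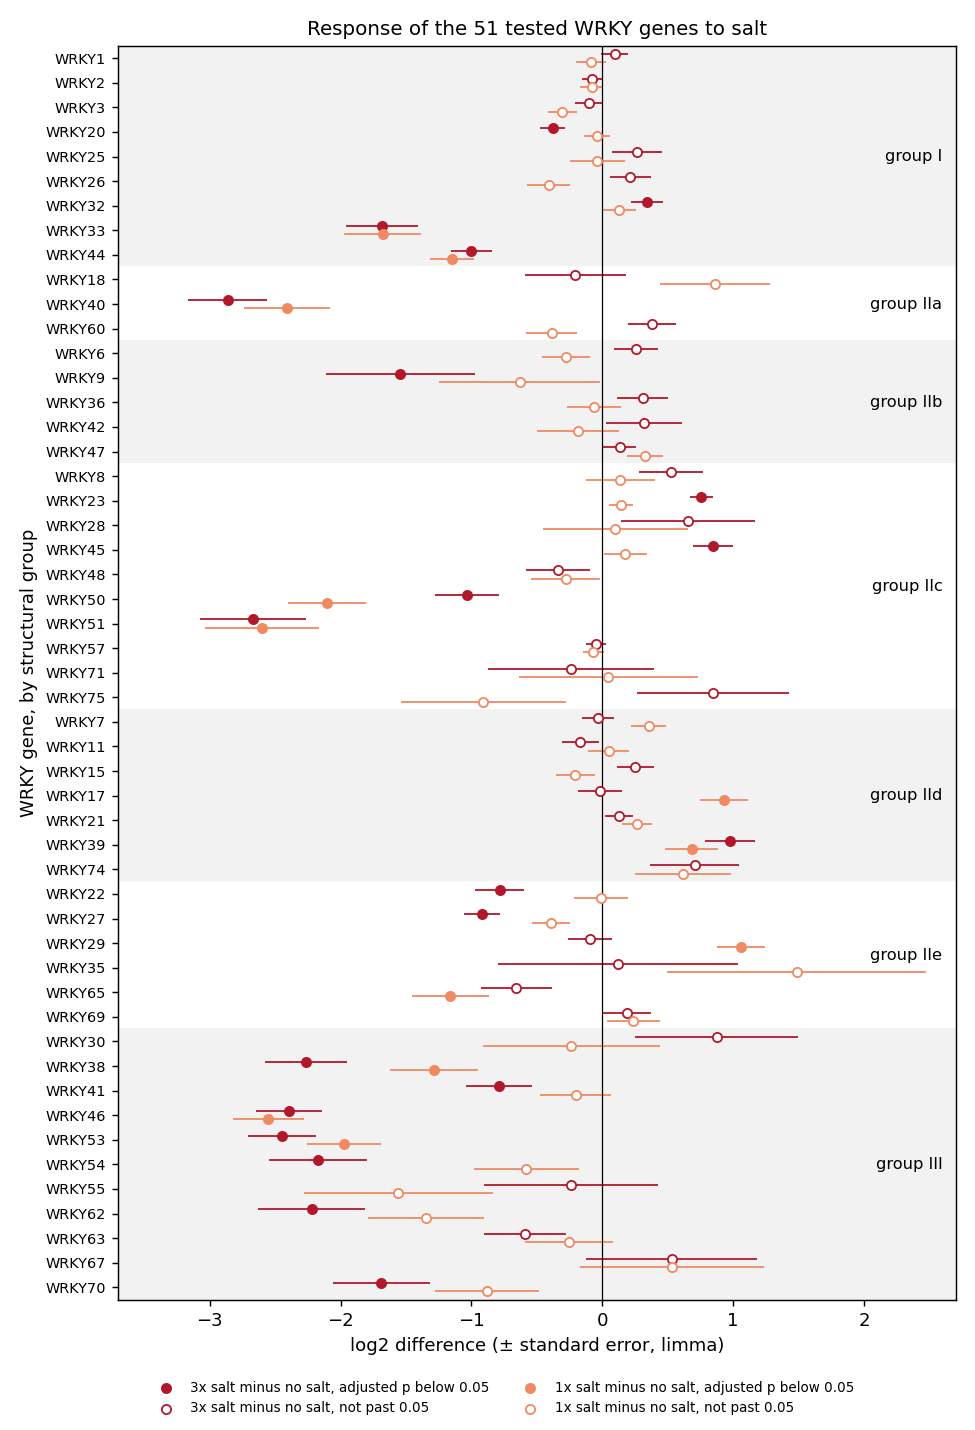
Log2 difference from no salt, with its standard error, for the 51 WRKY genes tested, ordered by WRKY group, for 3x salt and for 1x salt. Filled symbols have an adjusted p below 0.05, and the filled symbols left of 0 outnumber those right of 0, by 16 to 4 in 3x salt and by 9 to 3 in 1x salt.

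Group III held the largest share of lower genes in 3x salt. In 3x salt 7 of its 11 members were lower than without salt and 0 were higher (0 higher also at an unadjusted p below 0.05), with a median log2 difference of -1.69. In 1x salt 3 of the 11 were lower and 0 higher, with a median of -0.88 (all genes: 23.6% lower and 27.9% higher in 3x salt, 7.68% lower and 9.21% higher in 1x salt). Without WRKY62 and WRKY67, which passed the filter only through 1 group, 6 of 9 were lower in 3x salt and 3 of 9 in 1x salt. With normexp, quantile normalization or the deposited table, 6, 7 and 6 of the 11 were lower in 3x salt and 3, 4 and 4 in 1x salt. Over all genes 16.8%, 21.4% and 14.3% were then lower in 3x salt and 3.01%, 9.04% and 4.9% in 1x salt. The lower genes include regulators of stomatal behaviour and of senescence. WRKY46 (AT2G46400), which is transcribed in guard cells and takes part in light-dependent stomatal opening, stood at -2.17, -2.21, -2.40 and -2.31 in 3x salt, at -1.85, -2.66 and -2.78 in 1x salt, and at -0.58, 0.25, 0.32 and 0.50 without salt. All 7 salt samples lay below all 4 no salt samples. WRKY46 fell by 2.39 in 3x salt (SE 0.25, adjusted p = 6.35e-05), a 5.26-fold change, and by 2.55 in 1x salt (SE 0.27, adjusted p = 0.000516), a 5.86-fold change. On the only slide that held all 3 groups, slide 1, the differences were smaller, -1.59 and -1.27.

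WRKY53 (AT4G23810), a promoter of leaf senescence that responds to hydrogen peroxide, gave -3.07, -2.89, -2.34 and -2.37 in 3x salt, -1.46, -2.57 and -2.55 in 1x salt, and -0.49, -0.03, -0.13 and -0.23 without salt. Again every sample from salt-treated plants lay below all no salt samples. WRKY53 fell by 2.45 in 3x salt (SE 0.26, adjusted p = 6.86e-05) and by 1.97 in 1x salt (SE 0.28, adjusted p = 0.00193). WRKY38 and WRKY62 are related negative regulators of basal defence. WRKY38 (AT5G22570) stood at -5.22, -5.61, -4.46 and -4.51 in 3x salt, at -3.32, -4.37 and -4.21 in 1x salt, and at -2.20, -2.94, -2.85 and -2.75 without salt, in 3 separate ranges. It fell by 2.26 in 3x salt (SE 0.31, adjusted p = 0.000275) and by 1.28 in 1x salt (SE 0.34, adjusted p = 0.0279). The 1x salt call of WRKY38 was lost on leaving out any of no salt samples 1, 3 and 4 or 1x salt samples 2 and 3 (adjusted p up to 0.102). WRKY62 (AT5G01900) had only 1 of 4 3x salt arrays above background and passed the filter through no salt, so its size is uncertain. Its log2 difference in 3x salt was -2.22 (SE 0.41, adjusted p = 0.00148) on the values as measured. It was -1.42 with each dim array raised to its lowest signal well above background, and -1.15 in a limma fit of the authors' deposited table. Its difference in 1x salt was -1.35 (SE 0.44, adjusted p = 0.0653). Without 1x salt sample 1 the WRKY62 difference in 1x salt was -1.65 (adjusted p = 0.0382). That sample was the highest of the 1x salt values of WRKY62, so leaving it out favours a low p and is no separate test.

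WRKY54 and WRKY70 are close homologues known as negative regulators of senescence and of osmotic stress responses including stomatal closure, and WRKY70 also sits between the salicylate and jasmonate pathways. WRKY70 (AT3G56400) gave 2.11, 2.27, 2.22 and 2.51 in 3x salt, 4.37, 2.62 and 2.26 in 1x salt, and 3.94, 4.02, 4.01 and 3.89 without salt. The 3x salt samples all lay below the no salt samples, while in 1x salt sample 1 lay above all no salt samples and samples 2 and 3 lay below them. WRKY70 fell by 1.69 in 3x salt (SE 0.37, adjusted p = 0.00363), and its difference in 1x salt was -0.88 (SE 0.40, adjusted p = 0.161), or -1.53 (adjusted p = 0.000106) without 1x salt sample 1. That sample stood apart from the other 1x salt samples, so leaving it out favours a low p and is no separate test. WRKY54 (AT2G40750) behaved alike in the single samples, with -3.28, -3.28, -2.11 and -2.24 in 3x salt, -0.16, -1.48 and -1.77 in 1x salt, and -0.43, -0.57, -0.58 and -0.66 without salt. It fell by 2.17 in 3x salt (SE 0.37, adjusted p = 0.000953). In 1x salt its difference was -0.58 (SE 0.40, adjusted p = 0.362), or -1.07 (adjusted p = 0.0464) without 1x salt sample 1, with the same limit as for WRKY70. WRKY41 was 0.79 lower on the log2 scale in 3x salt (adjusted p = 0.0241), a call lost on leaving out no salt sample 2 or 3x salt sample 1, 3 or 4 (adjusted p up to 0.0683). The other group III genes, WRKY30, WRKY55, WRKY63 and WRKY67, passed no test in either salt regime, with 3x salt differences of 0.87, -0.24, -0.59 and 0.53.

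**Figure D3:**
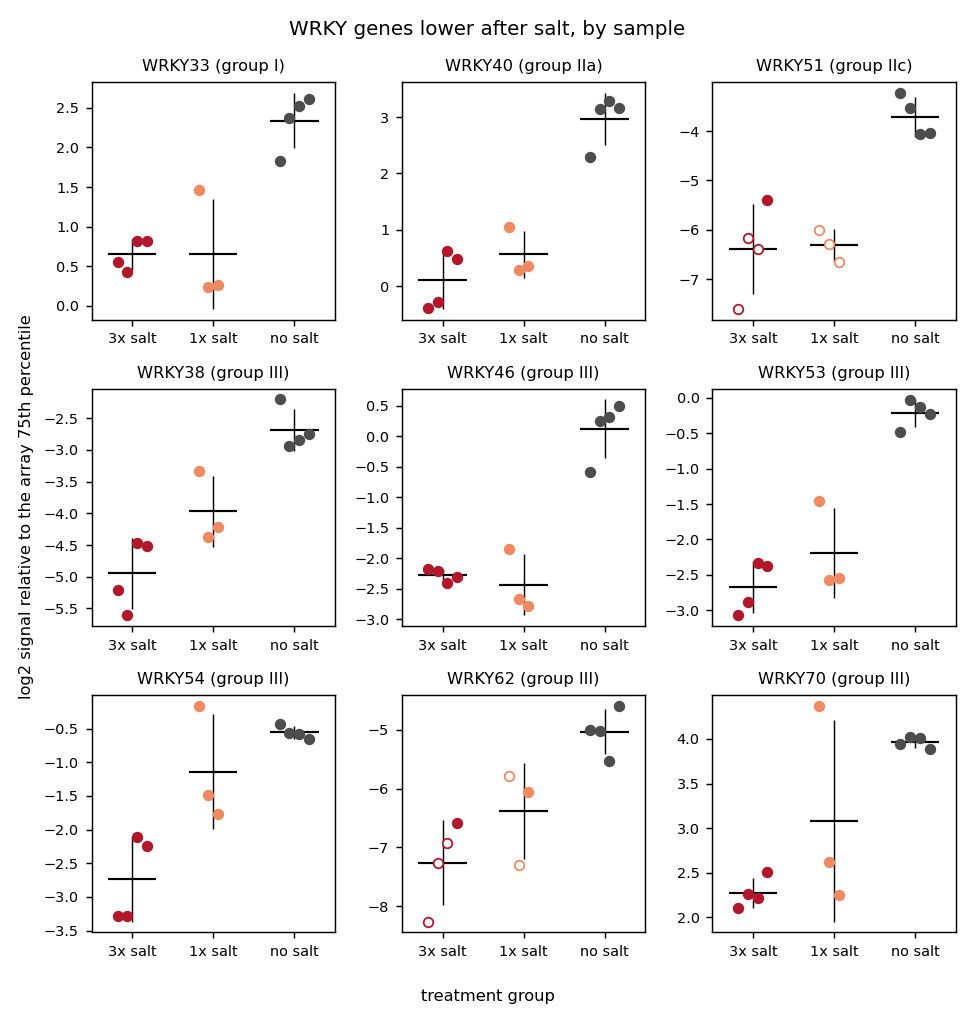
Level in every sample (log2 relative to the 75th percentile of the array) of 9 WRKY genes that were lower in 3x salt, in the columns 3x salt, 1x salt and no salt, with bars for the mean and its SD. Open symbols are not well above background. In each panel the 3x salt points lie below all no salt points, and 1x salt sample 1 stands above the other 1x salt samples.

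In group IIa, the 3 homologues WRKY18, WRKY40 and WRKY60, which repress basal defence together and act in abscisic acid signalling, parted ways. WRKY40 (AT1G80840) had the largest difference of the family in 3x salt. It stood at -0.39, -0.27, 0.62 and 0.48 in 3x salt, at 1.05, 0.28 and 0.36 in 1x salt, and at 2.29, 3.14, 3.28 and 3.17 without salt, with no overlap between salt and no salt samples. WRKY40 fell by 2.86 in 3x salt (SE 0.30, adjusted p = 6.35e-05), a 7.28-fold change, and by 2.41 in 1x salt (SE 0.33, adjusted p = 0.00148), a 5.31-fold change. Within slides it was -2.68 and -2.69 for 3x salt on slides 1 and 6, and -1.24, -2.87 and -2.92 for 1x salt on slides 1, 2 and 4. WRKY18 (AT4G31800) instead gave 3.95, 3.93, 2.59 and 2.51 in 3x salt, 4.68, 4.30 and 3.95 in 1x salt, and 2.73, 3.77, 3.80 and 3.49 without salt. Its 3x salt samples split into a pair above and a pair below all no salt samples, and its difference was -0.20 in 3x salt (adjusted p = 0.684) and 0.86 in 1x salt (adjusted p = 0.193). The sign of the 3x salt difference turned to 0.01 and 0.04 without 3x salt sample 3 and without 3x salt sample 4. Between the regimes, 3x salt minus 1x salt, WRKY18 differed by -1.07 (SE 0.42, adjusted p = 0.0687). In the authors' deposited table that difference was -1.13 (adjusted p = 0.0407). WRKY60 (AT2G25000) gave -0.81, -0.87, -0.37 and -0.49 in 3x salt, -1.93, -1.07 and -1.21 in 1x salt, and -0.97, -1.05, -1.01 and -1.03 without salt. Its differences from no salt were 0.38 in 3x salt (adjusted p = 0.104) and -0.39 in 1x salt (adjusted p = 0.213), and the salt regimes differed by 0.77 (SE 0.20, adjusted p = 0.0121).

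In group I, 3 of 9 genes tested were lower and 1 higher in 3x salt, and 2 lower and 0 higher in 1x salt (0 higher also at an unadjusted p below 0.05). Over all genes 23.6% were lower and 27.9% higher in 3x salt, and 7.68% lower and 9.21% higher in 1x salt. WRKY33 (AT2G38470), a target of MPK3 and MPK6 that drives camalexin synthesis and has been placed with WRKY25 in salt tolerance, stood at 0.55, 0.43, 0.82 and 0.81 in 3x salt, at 1.46, 0.24 and 0.27 in 1x salt, and at 1.83, 2.38, 2.52 and 2.61 without salt. All salt samples lay below the no salt samples, 1x salt sample 1 least so. WRKY33 fell by 1.68 in 3x salt (SE 0.27, adjusted p = 0.000688) and by 1.68 in 1x salt (SE 0.30, adjusted p = 0.00513). On slide 1 the 1x salt difference was -0.37, against -2.13 and -2.25 on slides 2 and 4. WRKY25 (AT2G30250), its homologue, gave -0.02, -0.05, 0.62 and 0.64 in 3x salt, -0.37, 0.17 and 0.17 in 1x salt, and -0.17, 0.04, 0.19 and 0.06 without salt, and its groups overlapped. Its differences were 0.27 in 3x salt (SE 0.19, adjusted p = 0.279) and -0.04 in 1x salt (SE 0.21, adjusted p = 0.923).

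WRKY44 (AT2G37260), known as TTG2 for its role in trichome and seed coat development, fell in both salt regimes, by 1.00 in 3x salt (SE 0.16, adjusted p = 0.000572) and by 1.15 in 1x salt (SE 0.17, adjusted p = 0.00222). Its salt samples lay between -3.89 and -3.24 and its no salt samples between -2.69 and -2.51. WRKY20 fell by 0.38 in 3x salt (SE 0.09, adjusted p = 0.00714). WRKY32 rose by 0.34 in 3x salt (SE 0.12, adjusted p = 0.0373), with 3x salt samples at 1.27 to 1.60 and no salt samples at 0.88 to 1.17. That call was lost on leaving out any no salt sample or 3x salt sample 1, 3 or 4 (adjusted p up to 0.0994). WRKY1, WRKY2, WRKY3, WRKY25 and WRKY26 passed no test against no salt, with 3x salt differences of -0.10 to 0.27.

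Among the group IIc genes, 2 of 10 were lower and 2 higher in 3x salt, and 2 lower and 0 higher in 1x salt (0 higher also at an unadjusted p below 0.05). The shares of all genes were 23.6% lower and 27.9% higher in 3x salt, and 7.68% lower and 9.21% higher in 1x salt. The lower pair, WRKY50 and WRKY51, mediates the repression of jasmonate signalling by salicylate. WRKY51 (AT5G64810) stood at -7.60, -6.17, -6.38 and -5.39 in 3x salt, at -6.00, -6.29 and -6.66 in 1x salt, and at -3.23, -3.53, -4.06 and -4.04 without salt. In 3x salt, with 1 of 4 arrays above background, its log2 difference was -2.67 on the values as measured (SE 0.41, adjusted p = 0.000464). It was -2.30 with the dim arrays raised to the lowest signal well above background, and -1.90 in a limma fit of the authors' deposited table. In 1x salt WRKY51 was not well above background on any array. Its 1x salt difference was -2.16 in a limma fit of the authors' deposited table (adjusted p = 0.000582), and it ran from -3.06 to -1.40 over the alternatives. On the processed signal alone it was at least 5.65-fold lower than without salt (adjusted p = 0.00422). For such a bound each dim array contributes its lowest signal that is well above background, or the probe's own signal where that is higher. WRKY50 (AT5G26170) gave -5.39, -5.33, -4.75 and -4.34 in 3x salt and -3.69, -4.09, -4.08 and -3.82 without salt, without overlap, and fell by 1.03 (SE 0.24, adjusted p = 0.00684). In 1x salt the spot of sample 3 was an outlier and was left out, and the other 2 arrays gave -5.75 and -6.31, neither well above background. On these 2 arrays WRKY50 was at least 4.22-fold lower than without salt (adjusted p = 0.00249), and the second probe of the gene gave a log2 difference of -1.73. The left-out array did not follow them in the authors' deposited table, where sample 3 stood at 7.03, within the no salt values of 6.84 to 7.28. In that table the 1x salt difference was -0.97 (adjusted p = 0.131) and the 3x salt difference -0.84 (adjusted p = 0.0764).

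The higher group IIc genes had smaller differences. The SD within a group was 0.09 to 0.12 for WRKY23 and 0.08 to 0.33 for WRKY45. WRKY23 (AT2G47260), an auxin-inducible factor of root and embryo development, gave -2.53, -2.60, -2.41 and -2.32 in 3x salt, -3.23, -3.005 and -3.015 in 1x salt, and -3.35, -3.16, -3.15 and -3.23 without salt. The 3x salt samples lay above all others, and WRKY23 rose by 0.76 in 3x salt (SE 0.09, adjusted p = 0.000102) while its difference in 1x salt was 0.14 (adjusted p = 0.336). With normexp the 3x salt difference of WRKY23 was 0.25 (adjusted p = 0.435). WRKY45 (AT3G01970), which activates phosphate uptake and promotes senescence, gave -0.51, -0.38, -0.33 and -0.36 in 3x salt, -1.44, -0.80 and -0.94 in 1x salt, and -1.07, -1.01, -1.41 and -1.46 without salt. It rose by 0.85 in 3x salt (SE 0.15, adjusted p = 0.00118), above every other sample, and its difference in 1x salt was 0.18 (adjusted p = 0.505). Its homologue WRKY75 (AT5G13080), also a regulator of phosphate starvation responses and senescence, gave -2.999, -3.084, -2.16 and -2.28 in 3x salt, -6.25, -3.63 and -3.27 in 1x salt, and -2.83, -3.51, -3.99 and -3.59 without salt. The 1x salt sample at -6.25 was not well above background, and the differences of WRKY75 were 0.85 in 3x salt (SE 0.58, adjusted p = 0.248) and -0.91 in 1x salt (SE 0.63, adjusted p = 0.362). Without 1x salt sample 1 they were 0.85 (adjusted p = 0.032) and 0.03 (adjusted p = 0.965). That sample lay far from the other 1x salt samples, so leaving it out narrows the spread, favours a low p and is no separate test.

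WRKY28 (AT4G18170), an activator of the salicylate synthesis gene ICS1, showed the array pairs most openly. It stood at -1.50, -1.61, 0.24 and 0.05 in 3x salt, at -2.46, -0.55 and -0.76 in 1x salt, and at -1.48, -1.26, -1.23 and -1.46 without salt. The spread within 3x salt exceeded any difference between group means, and its 3x salt difference was 0.66 (SE 0.51, adjusted p = 0.309). WRKY8, which acts with VQ9 in salt tolerance, passed no test against no salt, and neither did WRKY48, WRKY57 and WRKY71. Their 3x salt differences were 0.53 for WRKY8, -0.34 for WRKY48, -0.05 for WRKY57 and -0.24 for WRKY71. In group IIb, 5 of 8 genes were tested. Of these only WRKY9 was called in 3x salt, at -1.54 (SE 0.57, adjusted p = 0.0439), with 1 of 4 3x salt arrays and 2 of 4 no salt arrays above background. With its dim arrays raised to the lowest signal well above background the difference was -0.85. Its call was lost in 8 of the 11 fits that left out an array, namely any of no salt samples 1, 2 and 4, 1x salt samples 1 and 2, and 3x salt samples 1, 3 and 4 (adjusted p up to 0.109). WRKY6 and WRKY42, repressors of the phosphate exporter gene PHO1, had 3x salt differences of 0.26 and 0.32 (adjusted p = 0.228 and 0.384), and those of WRKY36 and WRKY47 were 0.31 and 0.13 (adjusted p = 0.212 and 0.406). In 1x salt 0 group IIb genes were called, with 1 higher and 0 lower at an unadjusted p below 0.05. Of all genes, 23.6% were called lower and 27.9% higher in 3x salt, and 7.68% lower and 9.21% higher in 1x salt. Probes of a gene disagreed in sign against no salt for WRKY35 and WRKY47 in 3x salt and for WRKY57 in 1x salt, none of them called.

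In groups IId and IIe, 3 of the 4 calls in 1x salt were higher. The calmodulin-binding group IId had 1 of 7 genes higher and 0 lower in 3x salt, and 2 higher and 0 lower in 1x salt (0 lower also at an unadjusted p below 0.05 in both). Shares over all genes were 27.9% higher and 23.6% lower in 3x salt, and 9.21% higher and 7.68% lower in 1x salt. WRKY39 (AT3G04670), placed with calmodulin in heat responses, gave -0.09, -0.30, 0.33 and 0.39 in 3x salt, -0.66, -0.07 and 0.10 in 1x salt, and -0.89, -0.997, -0.86 and -0.84 without salt. All salt samples lay above all no salt samples. WRKY39 rose by 0.98 in 3x salt (SE 0.19, adjusted p = 0.00188) and by 0.68 in 1x salt (SE 0.20, adjusted p = 0.0462). The 1x salt call was lost on leaving out any of the 4 no salt samples, 1x salt sample 2 or 3, or 3x salt sample 1 or 3 (adjusted p up to 0.166). WRKY17 (AT2G24570), which with WRKY11 dampens basal resistance, gave -2.15, -2.13, -1.95 and -2.12 in 3x salt, -0.68, -1.57 and -1.17 in 1x salt, and -2.31, -1.98, -2.10 and -1.88 without salt. The 1x salt samples lay above all others, by 0.93 against no salt (SE 0.18, adjusted p = 0.00832), while 3x salt differed from no salt by -0.02 (SE 0.17, adjusted p = 0.931). WRKY11 itself differed by -0.17 in 3x salt and 0.05 in 1x salt (adjusted p = 0.355 and 0.871). WRKY7, WRKY15, WRKY21 and WRKY74 passed no test against no salt, with 3x salt differences of -0.03, 0.25, 0.13 and 0.71. Without 3x salt sample 3 the difference of WRKY74 was 1.01 (adjusted p = 0.0163). Normexp ended both group IId calls in 1x salt.

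WRKY29 (AT4G23550) of group IIe, an output of the flagellin-triggered MAP kinase cascade, followed the same order. It stood at -1.16, -1.47, -1.91 and -1.73 in 3x salt, at -0.26, -0.38 and -0.60 in 1x salt, and at -1.77, -1.38, -1.47 and -1.27 without salt. It rose by 1.06 in 1x salt (SE 0.18, adjusted p = 0.00468), a 2.08-fold change, and its 3x salt difference was -0.09 (SE 0.17, adjusted p = 0.667). WRKY22 (AT4G01250), described in the same cascade, gave -0.95, -0.96, -0.99 and -0.98 in 3x salt, -0.15, -0.27 and -0.16 in 1x salt, and -0.86, -0.04, -0.05 and 0.21 without salt. It fell by 0.78 in 3x salt (SE 0.19, adjusted p = 0.00614), and its 1x salt difference was -0.01 (adjusted p = 0.982). On slide 1, with no salt sample 1 at -0.86, the 3x salt difference of WRKY22 was -0.09, against -1.19 on slide 6. WRKY27 (AT5G52830), which shapes the course of bacterial wilt, fell by 0.92 in 3x salt (SE 0.14, adjusted p = 0.000408), with 3x salt samples at -1.39 to -0.97 and no salt samples at -0.38 to -0.14. WRKY65 was 1.16 lower on the log2 scale in 1x salt (SE 0.30, adjusted p = 0.0248), a call lost on leaving out no salt sample 1, 3 or 4 or 1x salt sample 2 or 3 (adjusted p up to 0.0838), and its 3x salt difference was -0.66 (adjusted p = 0.0687). WRKY35 and WRKY69 passed no test, with 3x salt differences of 0.12 and 0.19.

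**Figure D4:**
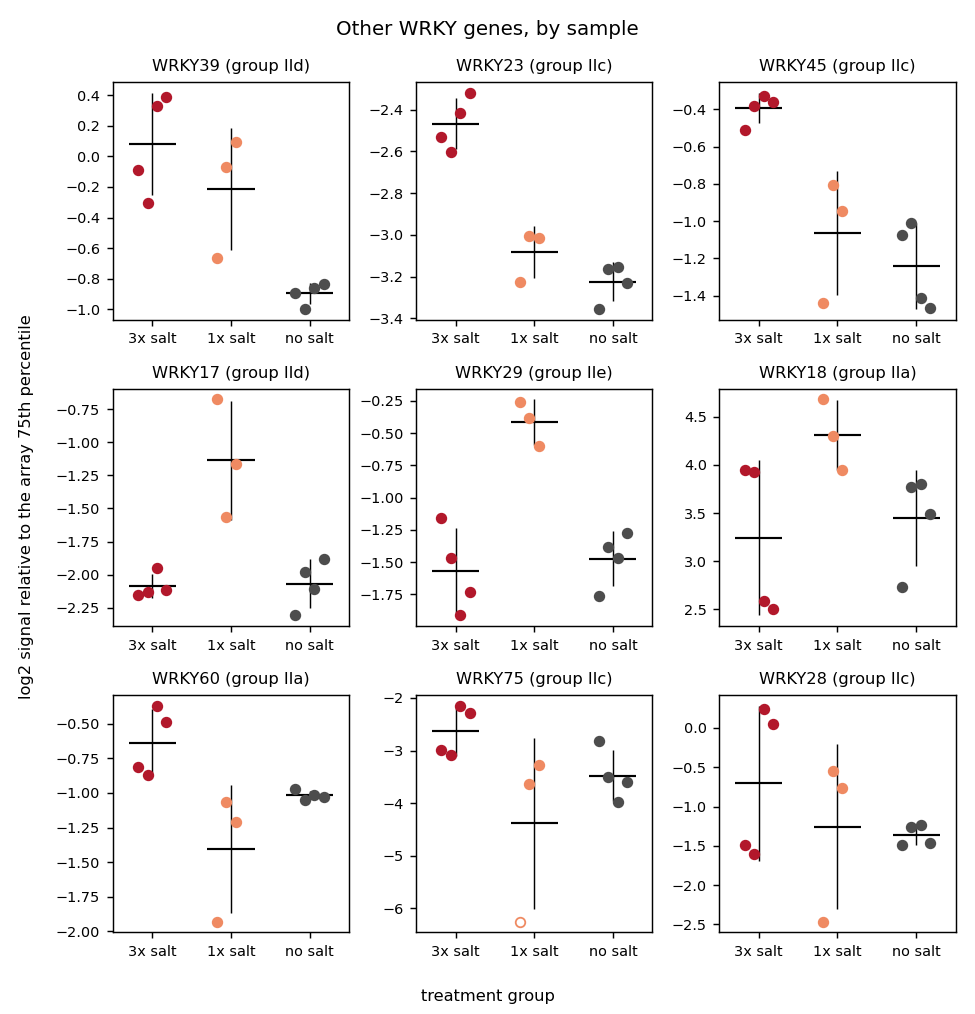
Level in every sample (log2 relative to the 75th percentile of the array) of 9 WRKY genes with other patterns, in the columns 3x salt, 1x salt and no salt, with bars for the mean and its SD and open symbols for values not well above background. WRKY17 and WRKY29 are highest in the 1x salt samples, WRKY23 and WRKY45 are highest in the 3x salt samples, and WRKY18 and WRKY28 split the 3x salt samples into 1 and 2 against 3 and 4.

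The direct comparison of 3 rounds with a single round called 8 WRKY genes higher and 8 lower in 3x salt than in 1x salt, 15.7% in each direction, against 19.8% of all genes higher and 19% lower. The split was 10 higher and 6 lower with quantile normalization (25.8% and 15.3% of all genes) and 2 higher and 5 lower with normexp (7.87% and 9.43% of all genes). With close arrays averaged, limma called 0 in either direction (0.563% of all genes higher and 1.62% lower), with 5 higher and 6 lower at an unadjusted p below 0.05. Higher in 3x salt were WRKY23 by 0.61 (SE 0.09, adjusted p = 0.000921), WRKY45 by 0.67 (SE 0.16, adjusted p = 0.00941), WRKY60 and WRKY26. WRKY26, a partner of WRKY25 and WRKY33 in heat tolerance, differed by 0.63 (SE 0.17, adjusted p = 0.0148), with 3x salt samples at 0.33 to 0.65 and 1x salt samples at -0.53 to 0.13. WRKY50 was at least 2.06-fold higher (adjusted p = 0.0201) against the 2 dim 1x salt values, but its difference was 0.13 (adjusted p = 0.834) in the authors' deposited table. WRKY75 differed by 1.76 (adjusted p = 0.0488), or by 0.82 (adjusted p = 0.106) without 1x salt sample 1, whose value was dim, WRKY6 by 0.53 (adjusted p = 0.0407) and WRKY15, a negative regulator of salt and osmotic stress tolerance, by 0.46 (adjusted p = 0.0351). These 4 calls were unsteady. That of WRKY50 was lost without 1x salt sample 2 (adjusted p = 0.139). That of WRKY6 was lost without no salt sample 2, 3 or 4, 1x salt sample 1 or 2, or 3x salt sample 3 or 4 (adjusted p up to 0.126). That of WRKY15 was lost without no salt sample 2 or 3, any 1x salt sample, or 3x salt sample 3 or 4 (adjusted p up to 0.0868), and that of WRKY75 without any no salt or 3x salt sample or 1x salt sample 1 (adjusted p up to 0.106). The count of higher genes was 5 without no salt sample 2 or 3, 1x salt sample 1 or 2, or 3x salt sample 3 or 4 (15.8 to 18.1% of all genes). The count of lower genes was 5 without 1x salt sample 3 (17.1% of all genes).

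Lower in 3x salt than in 1x salt were WRKY29 by 1.15 on the log2 scale (SE 0.18, adjusted p = 0.00109), WRKY17 by 0.95 (SE 0.18, adjusted p = 0.0029), WRKY54 by 1.59 (SE 0.40, adjusted p = 0.0115) and WRKY22 by 0.77 (SE 0.20, adjusted p = 0.0137). The groups of these 4 genes did not overlap. WRKY27 (-0.53, adjusted p = 0.0177), WRKY20 (-0.34, adjusted p = 0.0239), WRKY7 (-0.39, adjusted p = 0.041) and WRKY38 (-0.98, adjusted p = 0.0424) were also called lower. The calls of these last 4 genes were all lost without 1x salt sample 3. Other arrays whose removal ended a call were 1x salt sample 2 for WRKY27 (adjusted p up to 0.0639) and 1x salt sample 1 and 3x salt samples 2 and 4 for WRKY20 (adjusted p up to 0.0825). For WRKY7 they were no salt samples 2 to 4, 1x salt sample 1 and 3x salt samples 1, 2 and 4 (adjusted p up to 0.149), and for WRKY38 no salt samples 2 to 4, 1x salt sample 1 and 3x salt samples 1 and 2 (adjusted p up to 0.161). For several genes with deep falls in both regimes, the difference between the regimes did not pass the test. The difference between 3x salt and 1x salt was 0.16 for WRKY46 (SE 0.27, adjusted p = 0.68), -0.01 for WRKY33 (SE 0.30, adjusted p = 0.991), -0.45 for WRKY40 (SE 0.33, adjusted p = 0.298) and -0.47 for WRKY53 (SE 0.28, adjusted p = 0.212).

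Leaving out 1 array brought some uncalled genes past the threshold. These passes, and those given above for WRKY54, WRKY62, WRKY70, WRKY74 and WRKY75, were picked from fits leaving out each array in turn. They are no separate tests. Against no salt these were, in 3x salt, WRKY30 (0.87, adjusted p = 0.0209) and WRKY60 (0.38, adjusted p = 0.0184) without 1x salt sample 1, and WRKY8 (0.69, adjusted p = 0.0414) without 3x salt sample 1. WRKY65 was -0.87 (adjusted p = 0.0183) without 3x salt sample 3 and -0.81 (adjusted p = 0.0418) without 3x salt sample 4. In 1x salt they were WRKY69 (0.53, adjusted p = 0.0139) without 1x salt sample 1, WRKY7 (0.50, adjusted p = 0.0362) without 1x salt sample 2, and WRKY3 (-0.41, adjusted p = 0.0476) and WRKY55 (-2.55, adjusted p = 0.0164) without 1x salt sample 3. WRKY47 (0.42, adjusted p = 0.0481) passed in 1x salt without no salt sample 1, and WRKY62 (-1.35, adjusted p = 0.0371) without 3x salt sample 1.

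A further split ran through the family within 3x salt. Samples 3 and 4 both lay above samples 1 and 2 for 33 of the 51 WRKY genes tested (64.7%), and both lay below them for 7 (13.7%), against 28.6% and 32.6% of all genes. WRKY28, WRKY65, WRKY54 and WRKY40 were among the higher ones and WRKY18 among the lower ones. The 4 samples lay on slides 1, 3, 5 and 6.

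Lists of genes that act with the WRKY factors were described in the same way. The lists here and below were chosen with earlier results of these data known. For scale, 23.6% of all genes were lower and 27.9% higher in 3x salt, and 7.68% lower and 9.21% higher in 1x salt. Of 10 MAP kinase cascade genes upstream of WRKY factors, 5 were lower and 1 higher in 3x salt, with a median log2 difference of -0.47, and 4 were lower and 0 higher in 1x salt, with a median of -0.48 (0 higher also at an unadjusted p below 0.05). MKK9 fell by 1.53 in 3x salt (SE 0.17, adjusted p = 7.28e-05), and MPK3, whose product phosphorylates WRKY33, fell by 1.60 (SE 0.28, adjusted p = 0.00108). MPK6 differed by 0.11 (adjusted p = 0.22), and the higher gene was MPK4, at 0.37 (SE 0.10, adjusted p = 0.0134). Of 9 tested genes for VQ proteins, small partners of WRKY factors, 6 were lower and 1 higher in 3x salt (median -0.79), and 4 lower and 0 higher in 1x salt (median -0.69, with 1 higher at an unadjusted p below 0.05), or 2 lower in 1x salt with normexp (3.01% of all genes). SIB1, a partner of WRKY33, fell by 1.49 in 3x salt (SE 0.23, adjusted p = 0.000491) and by 1.33 in 1x salt (SE 0.25, adjusted p = 0.00666), MKS1, which links MPK4 to WRKY25 and WRKY33, fell by 1.26 and 0.98 (adjusted p = 0.000113 and 0.00353), and the higher gene was VQ9, at 0.47 in 3x salt (SE 0.09, adjusted p = 0.00186).

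Genes described as WRKY targets moved in both directions. Of 17 tested, 7 were lower and 4 higher in 3x salt (23.6% and 27.9% of all genes), with a median of -0.07, or 0.00 with quantile normalization. In 1x salt 3 were lower and 0 higher (7.68% and 9.21% of all genes), with a median of -0.36 and 0 higher also at an unadjusted p below 0.05. PAD3, the gene for the last enzyme of camalexin synthesis and a target of WRKY33, differed by 0.28 in 3x salt (SE 0.46, adjusted p = 0.641) and fell by 2.55 in 1x salt (SE 0.50, adjusted p = 0.0083). ICS1 fell by 0.99 in 3x salt (SE 0.28, adjusted p = 0.0152), and its 1x salt difference was -0.61 (adjusted p = 0.204). The higher genes in 3x salt were ABI5, a factor of abscisic acid signalling, at 0.91 (SE 0.13, adjusted p = 0.000344), FRK1, the ethylene synthesis gene ACS2 and the senescence gene SAG12, which was well above background on 2 of 4 3x salt arrays, 1 of 3 1x salt arrays and 0 of 4 no salt arrays. SAG12 would not have passed the filter without its 3x salt arrays or without its 1x salt array. Leaving SAG12 out, 7 of 16 were lower and 3 higher. The 3x salt counts were 4 lower and 1 higher with normexp (16.8% and 13.7% of all genes), and 4 lower and 4 higher of 20 with the authors' deposited table (14.3% and 18.3%).

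Rapid-response and salicylate genes, lists that overlap the known roles of several WRKY genes, were mostly lower. Because both lists were chosen with earlier results of these data known, their counts are no separate test. The counts of these lists and of the cell type markers stand against 23.6% of all genes lower and 27.9% higher in 3x salt, and 7.68% lower and 9.21% higher in 1x salt. Of 16 genes that respond rapidly to touch, cold and wounding, 14 were lower and 0 higher in 3x salt (median -1.87) and 9 lower and 0 higher in 1x salt (median -1.59), with 0 higher in either regime also at an unadjusted p below 0.05. The summed level of these genes, in multiples of the 75th percentile signal, was 33.7 to 52.8 in 3x salt, 42.4 to 88.9 in 1x salt and 74.2 to 132 without salt. Of 12 salicylate and basal immunity genes, 11 were lower and 0 higher in 3x salt (median -1.39) and 10 lower and 0 higher in 1x salt (median -1.58, against 7.68% of all genes lower), again with 0 higher at an unadjusted p below 0.05. Their summed levels were 7.63 to 9.10 in 3x salt, 7.06 to 7.96 in 1x salt and 16.7 to 17.3 without salt. ALD1, one of these genes, was well above background on the 4 no salt arrays alone, and without it 10 of 11 were lower in 3x salt and 9 of 11 in 1x salt. With normexp 6 of the 12 were lower in 1x salt (3.01% of all genes). The part of these lists in the lower levels of WRKY33, WRKY40, WRKY46, WRKY53 and WRKY70 was not tested. Cell type markers moved as well. All 8 mesophyll markers were lower in 3x salt (median -0.94), with summed levels of 357 to 446 in 3x salt, 656 to 1015 in 1x salt and 658 to 843 without salt, and 0 of 8 were called in 1x salt by limma (1 higher at an unadjusted p below 0.05). Of 11 vascular markers, 10 were higher in 1x salt (median 1.17), or 4 with normexp (median 0.91, against 2.27% of all genes higher), with summed levels of 82.6 to 89.4 in 3x salt, 102 to 127 in 1x salt and 59.1 to 76.0 without salt. The 11 guard cell markers gave 5 lower and 1 higher in 3x salt, and 1 lower and 2 higher in 1x salt, with summed levels of 35.083 to 45.014 in 3x salt, 58.966 to 75.706 in 1x salt and 44.719 to 56.001 without salt. Of 5 pavement cell and trichome markers tested, 2 were lower and 1 higher in 3x salt and 0 lower (also at an unadjusted p below 0.05) and 2 higher in 1x salt, and GL1 was on 0 arrays well above background. The summed levels of these 5 markers were 14.8 to 17.6 in 3x salt, 16.6 to 17.3 in 1x salt and 12.3 to 13.3 without salt. The part of these shifts in the WRKY differences, including the 1x salt rises of WRKY17 and WRKY29, was not tested.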

How the data were processed

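RNA (100 ng per sample) was labelled with Cy3 and hybridised to one-colour arrays, per the labels' protocols. The scanner files, from Agilent Feature Extraction 11.5.1.1 with annotation build TAIR 10 per the file headers, hold a background-subtracted, detrended processed signal in intensity units. The authors also deposited a table of normalised values per locus, on a log2 scale as judged against the scanner values (column medians 8.29 to 8.34). Its centring and normalisation are unknown.

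Control and outlier spots were left out, log2 processed signal minus the 75th percentile of the array was taken, 34348 of 43603 probes found a locus (25410 in all) by locus or RefSeq name (assembly TAIR10.1), and the brightest probe stood for a gene (20 of the 54 WRKY genes with a probe have several). The filter kept the 23458 of 34290 genes whose probe was well above background on 3 or more arrays, and 219 of these lacked a value on an array. Differences between the 3 groups were estimated in a linear model (limma 3.58.1, R 4.3.3, functions lmFit and eBayes, with 8 degrees of freedom left for the spread, package data.table, version 1.17.8), with Benjamini-Hochberg adjustment over all genes in each comparison and a threshold of 0.05. Tables and figures used python 3.11.15, pandas 2.3.3 and matplotlib 3.10.9. The number of arrays limits the precision.

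The WRKY members, the pathway and marker lists and the alternatives were chosen with earlier results of these data known. Members past the threshold are described by WRKY group, values are given in every sample for the largest differences and for known homologue sets, and other genes come only from the pathway and marker lists. The alternatives were normexp background correction (offset 50), quantile normalisation, the deposited table, no filter and a filter of all 11 arrays, the mean of the probes, blocks by replicate number and by slide, differences within slides, close arrays averaged, and leaving out each array. Raising dim arrays to their background limit, and leaving out genes that pass the filter only through 1 group, were added after seeing the data. Normexp was run on the median signal of each spot, since the files hold no mean signal. The arrays lay on 6 slides: slide 1 held sample 1 of each group, slide 2 no salt 2 and 1x salt 2, slide 4 no salt 3 and 1x salt 3, slide 6 no salt 4 and 3x salt 4, and slides 3 and 5 held 3x salt 2 and 3x salt 3 alone. No sequences or coordinates are given. Per the labels' extract protocol each treatment had 4 samples, and 3 of 1x salt were analysed here.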

Additional observations from a re-analysis of the deposited data

Results flagged for a closer look

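Of 102 gene-by-group sets of 4 samples, 9 held a sample whose gap to the nearest of the others exceeded Dixon's critical value for the range of its group. Chance flags about 1 set in 20. No salt sample 1 accounted for 6 of the 9. Its level was 0.88 for WRKY32 (other no salt samples 1.12 to 1.17), -2.69 for WRKY44 (others -2.54 to -2.51), 2.29 for WRKY40 (others 3.14 to 3.28), -2.28 for WRKY47 (others -2.70 to -2.67), -2.78 for WRKY48 (others -1.80 to -1.60) and 1.94 for WRKY11 (others 2.22 to 2.24). With all arrays WRKY48, a repressor of basal defence, differed from no salt by -0.34 in 3x salt (limma adjusted p = 0.28) and by -0.28 in 1x salt (adjusted p = 0.522). Without no salt sample 1 the differences were -0.61 (adjusted p = 0.00643) and -0.55 (adjusted p = 0.0407). That array was flagged on these same values, so its removal favours a low p and is no separate test. No salt sample 2 stood at -5.92 for WRKY63, the abscisic acid response factor ABO3 (others -5.16 to -5.03). In 3x salt, sample 3 stood at -1.95 for WRKY17 (others -2.15 to -2.12) and sample 1 at -8.33 for WRKY67 (others -5.80 to -5.51), the last of these not well above background. Sets of 3 samples, as in 1x salt, were not examined in this way.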

How the results depend on the processing

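Of the 20 WRKY calls of 3x salt against no salt, 6 held under every alternative with a test that could be run for them. These were WRKY40, WRKY51, WRKY38, WRKY46, WRKY53 and WRKY62. So did 0 of the 12 calls of 1x salt against no salt and 0 of the 16 calls of 3x salt against 1x salt. Among the 6, WRKY51 and WRKY62 passed the main filter only through no salt, the group where they are high. Their calls are therefore not on equal terms with the others. The filter that asks for all arrays could not be run for WRKY51 and WRKY62. Leaving out each array in turn kept 17, 9 and 8 of the 20, 12 and 16 calls. With close arrays averaged, counts of higher and lower WRKY genes were 1 and 6 (3x salt against no salt), 0 and 0 (1x salt against no salt) and 0 and 0 (3x salt against 1x salt), with fewer samples in the fit. With normexp they were 2 and 13, 1 and 7, and 2 and 5. Shares of all genes, in the same order, were then 13.7% and 16.8%, 2.27% and 3.01%, and 7.87% and 9.43%. The normexp median in 3x salt moved to -0.15 over all genes, against 0.04, and to -0.18 over the WRKY genes, against -0.08. Without a filter the counts were 4 and 15, 2 and 8, and 5 and 7 (all genes: 16.7% and 14.6%, 4.32% and 3.49%, and 10.8% and 12.2%). With the authors' deposited values, which hold all 56 WRKY genes, they were 5 and 13, 2 and 9, and 6 and 6 (all genes: 18.3% and 14.3%, 4.23% and 4.9%, and 13.9% and 10.2%). Leaving out 1 array gave 3 to 7 higher and 14 to 16 lower, 2 to 4 and 7 to 12, and 5 to 10 and 5 to 8. Over all genes these fits called 23.8 to 29.4% higher and 20.4 to 25% lower, 5.14 to 13.3% and 4.57 to 10.5%, and 15.8 to 19.8% and 16 to 19.1%. Whether replicate numbers pair the samples was not settled. Correlations of same-numbered samples ran from -0.12 to 0.30 and were negative only for 3x salt 2 with 1x salt 2. Those of samples with unlike numbers ran from -0.29 to 0.27. The replicate block gave counts of 6 and 16, 4 and 9, and 6 and 7 (all genes: 28.9% and 24.8%, 7.46% and 6.47%, and 19.7% and 19%). It added calls of WRKY74 (0.71, adjusted p = 0.0104), WRKY8 (0.53, adjusted p = 0.0302) and WRKY63 (-0.59, adjusted p = 0.0383) in 3x salt and of WRKY74 (0.74, adjusted p = 0.0414) in 1x salt. With slide as a random block the counts were 4 and 16, 3 and 9, and 8 and 8 (all genes: 29.5% and 25%, 11.8% and 9.45%, and 21.2% and 20.1%). All 20, 12 and 16 calls kept their sign within each of the 2, 3 and 1 slides that hold both groups, except that WRKY50 in 1x salt has no value on slide 4. Without genes that pass the filter only through 1 group, an alternative chosen after seeing the data, counts were 4 and 13, 3 and 8, and 8 and 8.

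Some uncalled differences changed sign. WRKY18 in 3x salt was 0.035 with close arrays averaged and -0.44 to 0.040 on leaving out arrays. WRKY25 in 1x salt was 0.023 with the replicate block and -0.13 to 0.14 on leaving out arrays, and WRKY75 in 1x salt was -1.47 to 0.027 on leaving out arrays. WRKY33 in 3x salt against 1x salt was 0.045 with normexp, 0.0075 with quantile normalisation, 0.048 with the authors' deposited values and -0.21 to 0.40 on leaving out arrays, and WRKY46 was -0.018 to 0.45 on leaving out arrays. A called difference, WRKY50 in 3x salt against 1x salt, was -0.044 with normexp. The cause was not tested. Signal over background limits WRKY9, WRKY35, WRKY51, WRKY62, WRKY67 and WRKY71.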

Other observations

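The authors' deposited table gives values for the WRKY genes that the scanner probes could not test. WRKY61 of group IIb stood there at 6.09, 6.25, 6.86 and 6.66 log2 units in 3x salt, at 4.78, 5.64 and 5.02 in 1x salt, and at 5.33, 5.59, 5.71 and 5.34 without salt, with the 3x salt samples above all others. Fitted on that table with limma, WRKY61 was higher by 0.97 in 3x salt than without salt (adjusted p = 0.00473) and by 1.32 than in 1x salt (adjusted p = 0.00218). WRKY4 of group I, a gene of resistance to necrotrophic fungi, stood at 10.59, 10.53, 10.99 and 10.64 in 3x salt, at 10.05, 10.63 and 10.53 in 1x salt, and at 10.70, 10.34, 10.38 and 10.21 without salt, with overlapping groups and a difference of 0.28 in 3x salt (adjusted p = 0.219). No detection flag goes with the values of WRKY61 and WRKY4, so whether they lay above background is not known here.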
